A study of Mus musculus with 8 samples.

Results

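Carboxypeptidase M, a peptidase that trims basic residues from the C-terminus of peptides, was followed in MLO-Y4 cells together with 5 relatives and the 2 kinin receptors. The 8 genes were Cpm, Cpd, Cpe, Cpz, Cpxm1, Cpxm2, Bdkrb1 and Bdkrb2, out of 55359 genes in the count table. Cpm was selected on its log2 fold change between these same libraries, so its values are given as a description with no test. The relatives were taken by family and the receptors by ligand, with earlier results of these data known. Of the 8 genes, 6 passed the filter on low counts, as did 15164 genes in all.

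MLO-Y4, a mouse line of osteocyte-like cells, was studied, and RNA-seq of poly(A)-enriched RNA was done on 4 irradiated and 4 non-irradiated samples. The irradiated cells had received Er:YAG laser light at 6.0 J/cm2 for 1 minute, at a wavelength of 2940 nm from a distance of 25 cm, and RNA was taken 6 hours later. The non-irradiated cells received no laser light. Both groups carry the label wild type, were grown on dishes coated with collagen type I and were seeded 72 hours before irradiation; the medium was taken off before the laser was applied, and whether it was also taken off the non-irradiated cells is not given in the sources used here. MLO-Y4 is 1 immortalised line, cultured here without other bone cells as far as the labels say. Libraries are called L5 to L8 (irradiated) and C5 to C8 (non-irradiated) after the columns of the table. The labels do not say that they came from separate cultures, so the spread behind the p-values is that of these 8 samples and may be technical.

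The label of an osteocyte line was checked against 12 osteocyte markers. Of these, 8 were tested, and the 2 with the highest levels were Pdpn, a membrane mucin of early osteocytes, and Mmp14, a membrane collagenase. Sost, Mepe and Fgf23, products of mature osteocytes, had no counts in any of the 8 libraries. Dmp1, a matrix protein of osteocytes, summed to 61 counts over the irradiated and 21 over the non-irradiated libraries and stayed below the filter. Totals were 43786209 to 51734166 counts in the irradiated libraries and 46117247 to 49838938 in the non-irradiated ones. Across all tested genes, 1247 were higher and 1023 lower in irradiated cells at an adjusted p under 0.05, which is 8.22% and 6.75% of them.

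Kinins are short peptides cut from kininogen by kallikreins, and bradykinin is the best known. The B2 receptor, present in many tissues at rest, binds intact bradykinin, whereas the B1 receptor, which inflammatory stimuli induce, prefers kinins that have lost their C-terminal arginine. Carboxypeptidase M sits on the outer cell surface on a glycosylphosphatidylinositol (GPI) anchor and makes that cut, turning a ligand of one receptor into a ligand of the other. In bone, kinins acting on both receptors are known to raise prostaglandin output by osteoblasts.

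The promoter of Cpm is shown because its gene has the largest change among the members, and that of Cpxm1 because it is the member with the next largest. Both windows are from RefSeq on GRCm38.p6 and run from 250 bases before to 50 bases after the annotated start. The Cpm window is chr10:117629250-117629549 on the plus strand and the Cpxm1 window is chr2:130397580-130397879 on the minus strand. Each is written 5′ to 3′ along its gene, and capitals mark GC boxes (GGGCGG, or CCGCCC where the match is on the other strand) and the TATA box core (TATAA).
Cpm: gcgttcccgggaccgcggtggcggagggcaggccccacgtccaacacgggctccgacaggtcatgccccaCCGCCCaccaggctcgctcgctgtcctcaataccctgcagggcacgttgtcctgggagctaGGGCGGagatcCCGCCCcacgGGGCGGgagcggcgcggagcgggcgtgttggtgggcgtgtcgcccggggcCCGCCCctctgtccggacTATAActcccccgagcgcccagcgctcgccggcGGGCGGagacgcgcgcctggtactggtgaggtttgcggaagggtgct
Cpxm1: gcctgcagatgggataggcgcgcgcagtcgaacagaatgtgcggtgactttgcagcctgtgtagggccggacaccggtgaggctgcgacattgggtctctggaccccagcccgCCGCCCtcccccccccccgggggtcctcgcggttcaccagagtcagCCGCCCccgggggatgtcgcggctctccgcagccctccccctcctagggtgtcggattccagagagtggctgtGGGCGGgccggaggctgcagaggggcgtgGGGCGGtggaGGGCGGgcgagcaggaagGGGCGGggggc
The Cpm window held 6 GC boxes and 1 TATA box core, with the TATA box core starting 30 bases before the gene start. The Cpxm1 window also held 6 GC boxes but no TATA box core. Both strands were searched and the motifs did not have to be free of overlap with each other. At least 1 GC box occurred in 35.7% and at least 1 TATA box core in 24.9% of the 32851 windows of the same length. The shares of windows with 6 GC boxes, or with a TATA box core at the same place, are not given here. Neither window held an AP-1 site (TGANTCA, in 7.81% of windows), an EGR site (GCGNGGGCG, in 5.55%) or a cyclic AMP response element (TGACGTCA, in 1.79%). G and C made up 73.7% of the Cpm window and 72.7% of the Cpxm1 window, against a median of 52.7%, and 5.10% of windows were at least as rich as that of Cpm. Of the 8 genes, 6 had a window, and the others are Cpe and Bdkrb1. GC boxes numbered 1 in the window of Cpd, 1 in that of Cpz and 3 in that of Cpxm2, and Bdkrb2 had 0 of them. A match says only that these letters stand in the window.

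Cpm (ENSMUSG00000020183.12) had 11.96, 10.3, 9.74 and 12.2 CPM (counts scaled to library size; CPM in capitals is the unit and Cpm the gene) in irradiated libraries L5 to L8, and 3.68, 2.80, 1.51 and 2.47 CPM in non-irradiated libraries C5 to C8. These rest on 572, 529, 422 and 609 counts in irradiated and 171, 131, 72 and 124 counts in non-irradiated libraries. All 4 irradiated libraries lay above all 4 non-irradiated ones, and the lowest irradiated value was 2.65 times the highest non-irradiated value. The mean was 11.05 ± 1.23 CPM in irradiated and 2.61 ± 0.899 CPM in non-irradiated cells (SD, n = 4 each), a 4.23-fold difference with a log2 fold change of 2.08 (SE 0.202). The irradiated libraries lay close together, with the highest 1.26 times the lowest, whereas the non-irradiated ones spread over 2.44 times, with C5 high and C7 low. Without C7 the log2 fold change was 1.89, and without C5 it was 2.29.

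**Figure D1:**
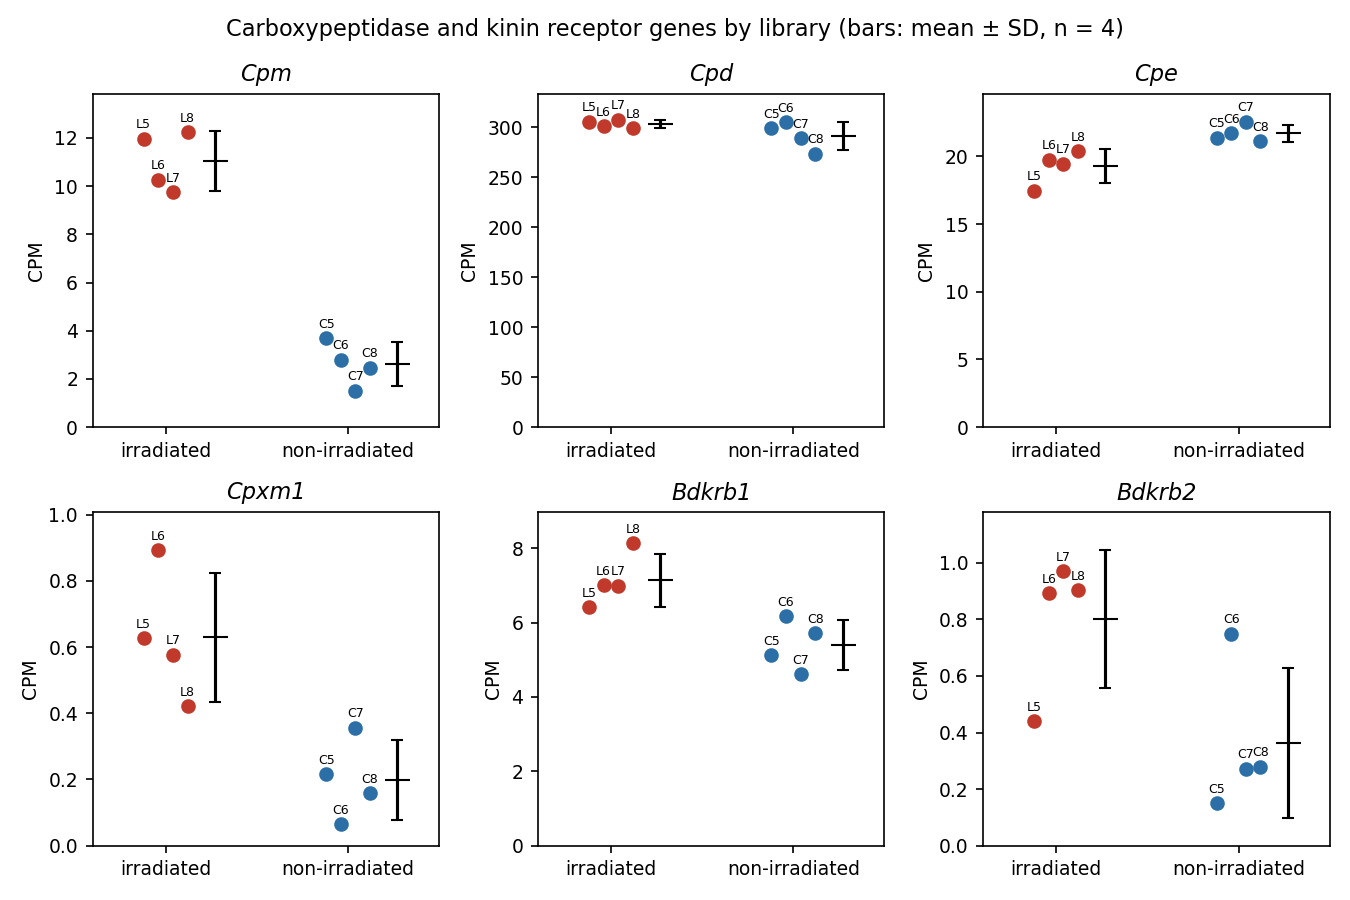
Levels in CPM (y axes, each starting at 0) of the 6 members that passed the filter, in irradiated libraries L5 to L8 (red) and non-irradiated libraries C5 to C8 (blue), with black bars for the mean ± SD of 4. Cpm averages 11.05 CPM in irradiated and 2.61 CPM in non-irradiated cells with no overlap, whereas the Cpd points of both groups lie between 273.4 and 307.4 CPM.

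By fitted rise, Cpm ranked 1 of the 12517 tested genes whose mean over all libraries reached 1 CPM and 7 of all 15164. The first place was narrow, with AC124169.1 at a log2 fold change of 2.07 against 2.08, and among those better-measured genes Cpm ranked 2 without any one of L5, L6, L8, C5, C7 or C8, 4 without C6, and 4 with limma-voom. The 6 genes with larger fitted rises had means of at most 0.949 CPM, and 5 of them carry predicted-gene or Riken names; the other is Lman1l, a lectin-like gene, with a log2 fold change of 2.34 and 1.25 ± 0.384 CPM in irradiated against 0.245 ± 0.200 CPM in non-irradiated cells (SD, n = 4 each). D730045B01Rik, AC124169.1 and Slc16a13 came next after Cpm with log2 fold changes of 2.08, 2.07 and 2.06. Of these 3, AC124169.1 is the one with a mean above 1 CPM. Per kilobase of its longest transcript, Cpm stood at 2.13 CPM in irradiated and 0.503 CPM in non-irradiated cells, above 30.0% of tested genes in irradiated and above 15.6% in non-irradiated cells.

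**Figure D2:**
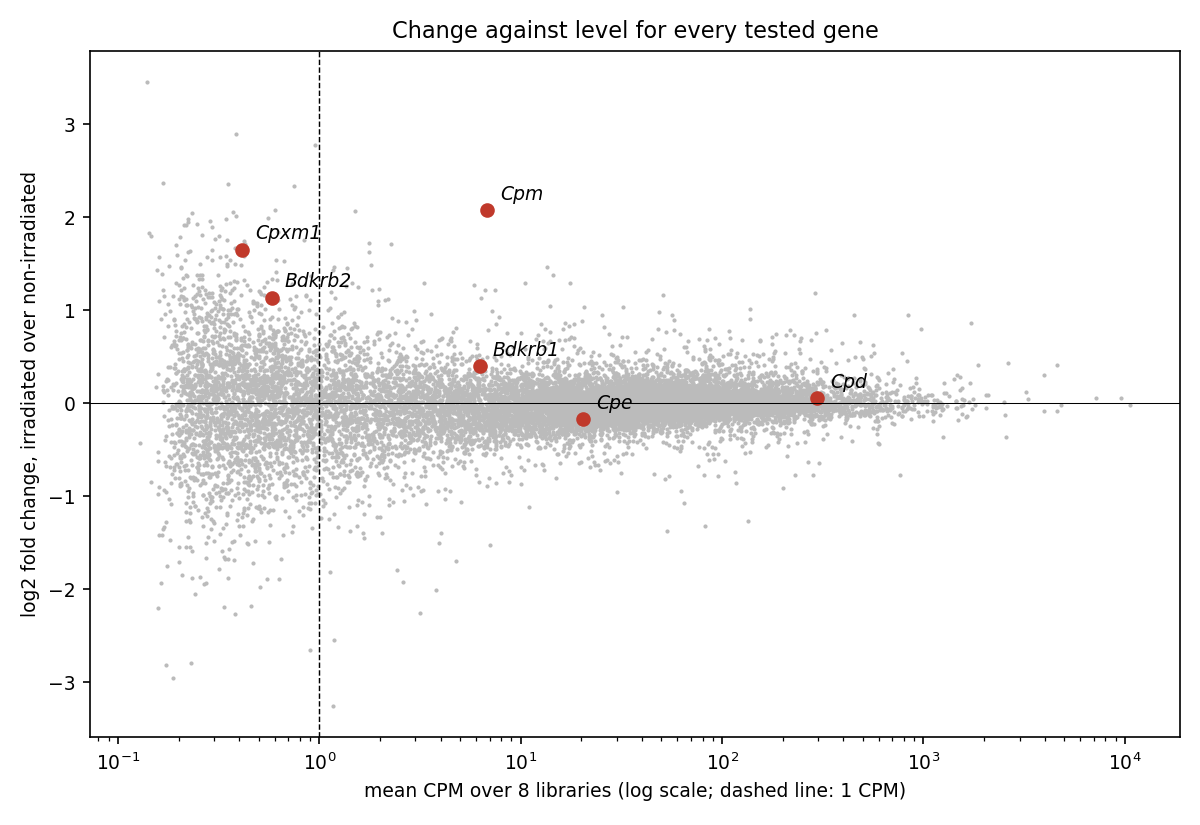
Log2 fold change, irradiated over non-irradiated (y axis), against mean CPM over all 8 libraries (x axis, log scale) for the 15164 tested genes in grey, with the 6 tested members in red and a dashed line at 1 CPM. To the right of the line Cpm is at 2.08, with AC124169.1 next at 2.07, whereas Cpxm1 and Bdkrb2 lie to the left of it, where fold changes spread widely.

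None of the 5 relatives and receptors that could be tested passed an adjusted p of 0.05 by edgeR's quasi-likelihood test, against 15.0% of all tested genes in either direction. At an unadjusted p under 0.05 there were 4 of 5, against 27.4% of tested genes. DESeq2 called 1 of them, Bdkrb1, and gave no adjusted p for Cpxm1. With limma-voom 1 was called, Cpxm1. The groups did not overlap for 3 of the 5, Cpe, Cpxm1 and Bdkrb1, against 18.5% of tested genes.

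Among the active relatives, Cpd (ENSMUSG00000020841.6) encodes carboxypeptidase D, a transmembrane enzyme of the trans-Golgi that trims proteins after furin has cut them. It had 305.6, 301.4, 307.4 and 299.1 CPM in irradiated libraries L5 to L8, against 298.9, 305.4, 288.9 and 273.4 CPM in non-irradiated libraries C5 to C8. The groups overlapped, with C8 lowest. The means were 303.4 ± 3.81 CPM in irradiated and 291.6 ± 13.9 CPM in non-irradiated cells (SD, n = 4 each), and the log2 fold change of 0.057 (SE 0.034) did not pass (adjusted p 0.303). Cpd was the most abundant member per length in both groups.

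Cpe (ENSMUSG00000037852.9) encodes carboxypeptidase E, which does the same trimming on prohormones in secretory granules. It had 17.5, 19.8, 19.5 and 20.4 CPM in irradiated libraries, against 21.4, 21.7, 22.6 and 21.1 CPM in non-irradiated ones. Every irradiated library was below every non-irradiated one, by a narrow margin between L8 and C8. With a log2 fold change of -0.17 (SE 0.072), from 19.3 ± 1.25 CPM in irradiated and 21.7 ± 0.628 CPM in non-irradiated cells (SD, n = 4 each), it did not pass (adjusted p 0.126). Cpe is the member whose estimate had the sign opposite to that of Cpm.

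Cpz (ENSMUSG00000036596.7), a secreted carboxypeptidase with a frizzled-like domain, had 0 counts in all 4 irradiated libraries, against 1, 0, 0 and 14 counts in non-irradiated libraries C5 to C8. It was below the filter and nearly all its counts were in 1 library. A limit of 3 counts corresponds to 0.058 to 0.0685 CPM in the irradiated libraries, for counting error alone, and if a fragment adds about 4 counts, as the variance of the counts allows, a limit of 12 counts is 0.232 to 0.274 CPM, close to the 0.278 CPM of Cpz in C8. Cpxm2 (ENSMUSG00000030862.14), a relative whose catalytic residues are not conserved, had 0 counts in all 8 libraries.

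Cpxm1 (ENSMUSG00000027408.8), the other member without conserved catalytic residues, encodes a secreted protein with a collagen-binding discoidin domain. It had 0.627, 0.892, 0.577 and 0.422 CPM in irradiated libraries, against 0.215, 0.0642, 0.356 and 0.159 CPM in non-irradiated ones. The counts were 30, 46, 25 and 21 in irradiated and 10, 3, 17 and 8 in non-irradiated libraries, so the groups did not overlap but L8 and C7 were only 4 counts apart. The mean was 0.630 ± 0.196 CPM in irradiated and 0.199 ± 0.122 CPM in non-irradiated cells (SD, n = 4 each). The log2 fold change was 1.65 (SE 0.552), 3.14-fold, with an adjusted p that, at 0.050, lay just above the threshold and did not pass. Without C7 the log2 fold change was 2.09 (adjusted p 0.0425). With any other 1 library left out it did not pass (adjusted p 0.0694 to 0.160).

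Of the kinin receptors, Bdkrb1 (ENSMUSG00000041347.6), the inducible B1 receptor for des-Arg kinins, was the more abundant. It had 6.42, 7.001, 6.995 and 8.13 CPM in irradiated libraries L5 to L8, against 5.12, 6.16, 4.61 and 5.71 CPM in non-irradiated libraries C5 to C8. All irradiated libraries were above all non-irradiated ones, with L5 just above C6. The means were 7.14 ± 0.717 CPM in irradiated and 5.40 ± 0.679 CPM in non-irradiated cells (SD, n = 4 each). The log2 fold change of 0.40 (SE 0.138) did not pass by edgeR (adjusted p 0.0575) and passed by DESeq2 (adjusted p 0.0291). In edgeR it passed without C6 (log2 fold change 0.47, adjusted p 0.0324). With any other 1 library left out it did not pass (adjusted p 0.0611 to 0.175).

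Bdkrb2 (ENSMUSG00000021070.7), the receptor for intact bradykinin, had 0.439, 0.892, 0.970 and 0.904 CPM in irradiated libraries, against 0.151, 0.749, 0.272 and 0.278 CPM in non-irradiated ones. The groups overlapped because L5 was low among the irradiated and C6 high among the non-irradiated libraries. With 21 to 46 counts in irradiated and 7 to 35 counts in non-irradiated libraries, the log2 fold change of 1.14 (SE 0.515) did not pass (adjusted p 0.156). Its means were 0.801 ± 0.244 CPM in irradiated and 0.363 ± 0.264 CPM in non-irradiated cells (SD, n = 4 each). Without C6 the log2 fold change was 1.76 and passed (adjusted p 0.0344), the only 1 of 16 alternatives in which it did. With any other 1 library left out the adjusted p was 0.135 to 0.331.

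Per kilobase of longest transcript, the order of levels in irradiated cells was Cpd at 38.2, Cpe at 9.10, Bdkrb1 at 5.33, Cpm at 2.13, Cpxm1 at 0.266 and Bdkrb2 at 0.211 CPM. In non-irradiated cells the levels were Cpd at 36.7, Cpe at 10.3, Bdkrb1 at 4.04, Cpm at 0.503, Bdkrb2 at 0.0956 and Cpxm1 at 0.0840 CPM. Cpxm1 and Bdkrb2, the last pair in both orders, did not differ beyond their spread in either group. The SDs over 4 irradiated libraries were 0.237 CPM per kilobase for Cpm and 0.536 for Bdkrb1, smaller than the distance between those neighbours. On this scale Cpm, whose enzyme makes des-Arg kinins, stayed below Bdkrb1, whose receptor binds them, in both groups.

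By the distance between profiles, Cyp26b1, which encodes a hydroxylase that clears retinoic acid, was the gene most like Cpm among those compared. Compared were tested genes whose mean reached 1 CPM, without those carrying predicted-gene, clone or Riken names. AC124169.1, next to Cpm in rise, was therefore left out. Each log2 CPM value was taken from the gene's own mean in non-irradiated cells. The measure was the root mean square difference between these values over 8 libraries. It was 0.432 for Cyp26b1, 0.606 for Ramp3 (a receptor-activity-modifying protein), 0.667 for Mal (a membrane raft proteolipid), 0.670 for Krt13 and 0.675 for Krt19 (both keratins). These 8 points share their libraries and the split into groups, and a small distance needs a rise of a size near that of Cpm, so all 5 are genes with large rises. Cyp26b1 had 3.07, 2.46, 2.17 and 2.99 CPM in irradiated libraries L5 to L8, against 1.64, 0.856, 0.586 and 0.736 CPM in non-irradiated libraries C5 to C8. As for Cpm, L5 and L8 were the highest and L7 the lowest of the irradiated libraries, and C5 was the highest and C7 the lowest of the non-irradiated ones. The distance was taken library by library, so a like order within groups is part of how these genes were picked. Ramp3 averaged 8.31 ± 0.537 CPM in irradiated and 3.43 ± 0.839 CPM in non-irradiated cells, and Mal 10.4 ± 0.920 CPM in irradiated and 4.46 ± 1.36 CPM in non-irradiated cells (SD, n = 4 each). In Krt13 and Krt19 the non-irradiated libraries did not follow this order, with C5 level with C6.

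**Figure D3:**
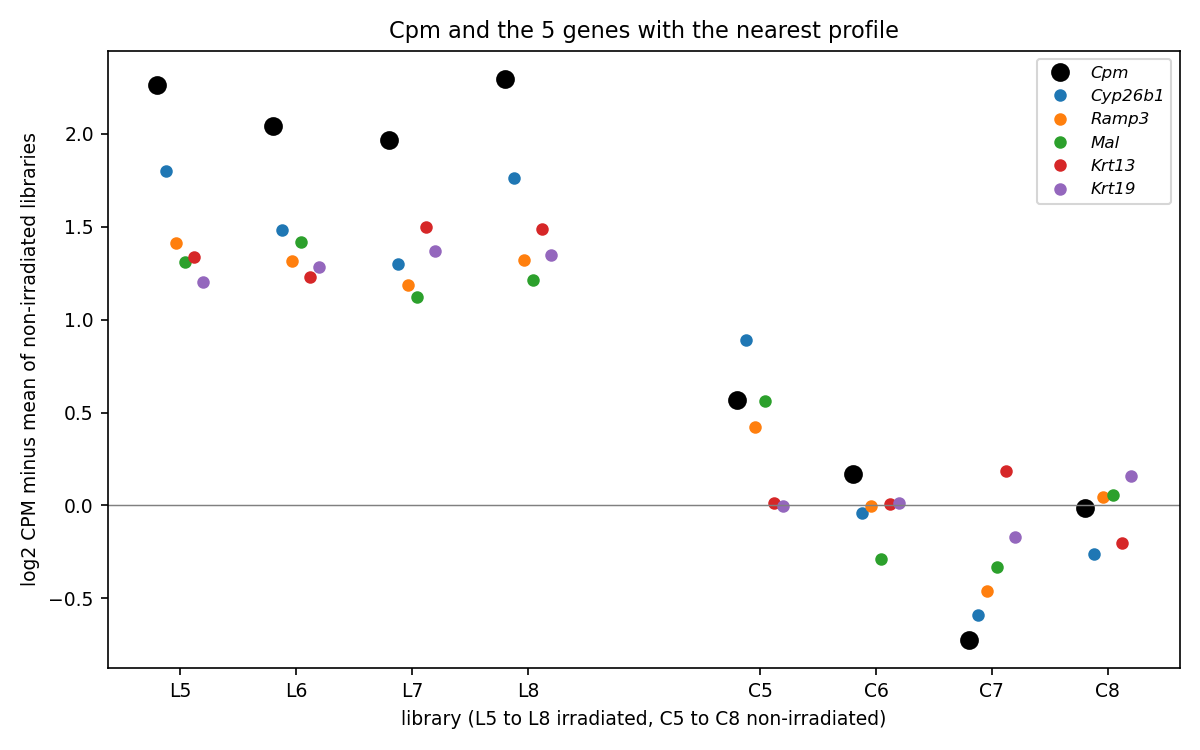
Log2 CPM minus the gene's mean in non-irradiated libraries (y axis) in each library (x axis, irradiated L5 to L8 on the left) for Cpm (large black points) and the 5 genes nearest to it. Genes with predicted-gene, clone or Riken names were not compared. In non-irradiated cells Cpm, Cyp26b1, Ramp3 and Mal are highest in C5 and lowest in C7. In irradiated cells Cpm lies above the other 5 in all 4 libraries.

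Over all tested genes 8.22% were higher and 6.75% lower, the shares to set beside this and every later list. Besides Cpm, 4 members of the N/E subfamily were tested, of which 1 was higher, 0 lower and 3 not called. Their median log2 fold change was 0.067, against -0.0065 for all tested genes. The gene called was Aebp1, a relative that acts as a collagen-binding matrix protein, at 1380.7 ± 29.8 CPM in irradiated and 1308.1 ± 22.1 CPM in non-irradiated cells (SD, n = 4 each; log2 fold change 0.078, adjusted p 0.0452). That call was lost without any one of L5, L7, L8, C5, C6 or C7 (adjusted p up to 0.165). Of 19 carboxypeptidases of other subfamilies, 9 were tested, and 0 were higher, 2 lower and 7 not called (median 0.046). Scpep1, a lysosomal serine carboxypeptidase, fell to 223.9 ± 3.86 CPM in irradiated cells, against 248.2 ± 5.38 CPM in non-irradiated cells (SD, n = 4 each; log2 fold change -0.15, adjusted p 0.00223). Agbl2, a tubulin deglutamylase, had a log2 fold change of -0.38 (adjusted p 0.0233), which did not pass without any one of L5, L7, L8, C5 or C7 (up to 0.104). Ctsa, the lysosomal protective protein, had a log2 fold change of -0.10 and missed the threshold (adjusted p 0.0628). Without C6 it passed (adjusted p 0.0310), and without any other 1 library it did not (up to 0.221).

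The genes that would supply kinins were nearly silent. Of 7 kinin precursors and releasing proteases, 0 passed the filter, and the kallikrein Klk1, the coagulation factors F11 and F12 and the inhibitor Serping1 had no counts in any library. The kininogen Kng1 had 0, 0, 0 and 7 counts in irradiated libraries, against 4, 0, 4 and 0 in non-irradiated ones. The second kininogen gene, Kng2, had 4, 0, 3 and 0 counts in irradiated libraries, against 13, 6, 3 and 11 in non-irradiated ones. The plasma prekallikrein gene Klkb1 had counts in C5 alone, 10 of them. Summed, the 7 genes reached 0 to 0.141 CPM in irradiated and 0.128 to 0.581 CPM in non-irradiated libraries. No gene of the list had more than 13 counts in any library. Kng2 summed to 7 counts over the irradiated and 33 over the non-irradiated libraries, and this difference was not tested.

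Of 15 peptidases that degrade or convert kinins, 9 were tested, and 1 was higher, 0 lower and 8 not called (median log2 fold change -6.23e-05). The gene called was Ece1, an endothelin-converting enzyme that also cuts bradykinin, with 339.9, 341.0, 358.1 and 340.4 CPM in irradiated libraries, against 307.6, 307.3, 301.3 and 297.1 CPM in non-irradiated ones. All irradiated libraries were above all non-irradiated ones, with L7 the highest (log2 fold change 0.19, adjusted p 0.000192). Thop1, a cytosolic oligopeptidase, averaged 110.2 ± 3.99 CPM in irradiated and 110.2 ± 3.27 CPM in non-irradiated cells (SD, n = 4 each; adjusted p 0.999). Ace, the main bradykinin-degrading enzyme of vessels, had no counts in any library, and neither had Dpp4 or Cpn2, the carrier subunit of the plasma carboxypeptidase N.

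Downstream of the receptors, 18 of 23 signalling genes were tested, with a median log2 fold change of 0.052. Of the 18, 7 were higher, 2 lower and 9 not called, against 8.22% higher and 6.75% lower of all tested genes. The called genes of this list are shared with many other receptors. Both cyclooxygenases rose, the inducible Ptgs2 by 1.19 on the log2 scale (adjusted p 0.00186) and the constitutive Ptgs1 by 0.49 (adjusted p 6.46e-10). Ptgs1 had 532.9, 533.5, 535.4 and 543.1 CPM in irradiated libraries, against 382.6, 396.2, 367.9 and 376.0 CPM in non-irradiated ones. The separation between its groups was several times the spread within either. Pla2g4a, the phospholipase that frees their substrate arachidonic acid, rose to 82.8 ± 1.82 CPM in irradiated cells, against 65.2 ± 3.52 CPM in non-irradiated cells (SD, n = 4 each; log2 fold change 0.34, adjusted p 2.86e-05). Arrb1, an arrestin that uncouples receptors, rose to 28.6 ± 1.37 CPM in irradiated cells, against 22.1 ± 1.98 CPM in non-irradiated cells (log2 fold change 0.37, adjusted p 0.00136). The G protein gene Gnai2 fell to 374.1 ± 8.31 CPM in irradiated cells, against 404.3 ± 8.03 CPM in non-irradiated cells (log2 fold change -0.11, adjusted p 0.0118). The other lower gene was Prkca, a kinase named after its value was seen (log2 fold change -0.13, adjusted p 0.0225), whose call was lost without any one of L5, L7, C5 or C6 (up to 0.0815). The main G protein of kinin receptors, Gnaq, had a log2 fold change of -0.055 (adjusted p 0.629), and it too was named after its value was seen.

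**Figure D4:**
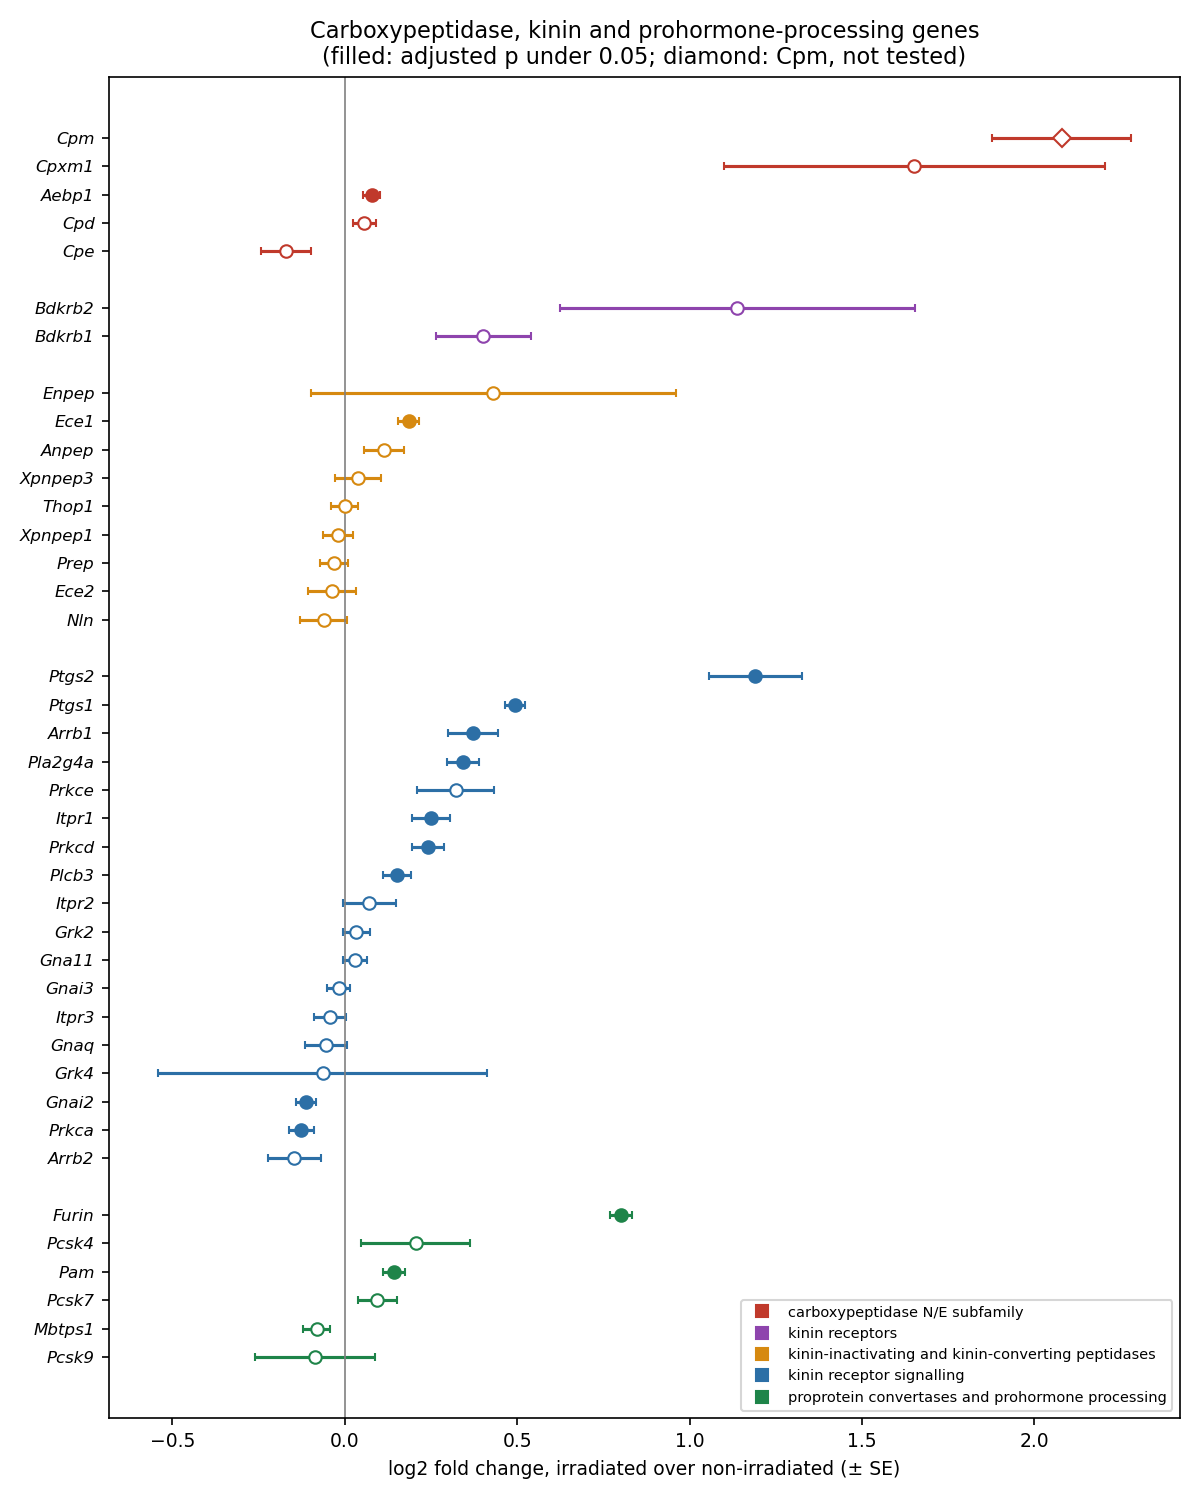
Log2 fold change, irradiated over non-irradiated, with its SE (x axis) for the tested carboxypeptidases of the N/E subfamily, kinin receptors, kinin peptidases, signalling genes and proprotein convertases (rows, coloured by group); filled points passed an adjusted p of 0.05 and the diamond is Cpm, which was not tested. Cpm, at 2.08, lies farthest to the right, and of the called genes Ptgs2 at 1.19 and Furin at 0.80 have the largest values.

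Upstream of Cpd and Cpe, proprotein convertases make the cuts that expose basic residues to those enzymes. Of 12 genes in that list, 6 were tested, and 2 were higher, 0 lower and 4 not called (median log2 fold change 0.12). Furin, the ubiquitous convertase of the trans-Golgi, had 1199, 1201, 1271 and 1244 CPM in irradiated libraries, against 700.9, 747.3, 675.5 and 694.6 CPM in non-irradiated ones. The groups did not overlap, and the lowest irradiated library was L5 and the highest non-irradiated one C6. The log2 fold change was 0.80 (SE 0.032), 1.74-fold, with an adjusted p of 6.3e-12. Pam, which amidates peptides after a carboxypeptidase has trimmed them, rose to 185.8 ± 3.93 CPM in irradiated cells, against 168.3 ± 2.81 CPM in non-irradiated cells (SD, n = 4 each; log2 fold change 0.14, adjusted p 0.00477). The enzyme Cpd, which acts between them, had the values given above and did not pass.

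Carboxypeptidase M also trims epidermal growth factor, anaphylatoxins and opioid peptides, as known mainly for the human enzyme. Of 13 genes for such peptides and their receptors, 3 were tested, and 1 was higher and 2 were not called. Egfr, the receptor of epidermal growth factor, had 277.7, 282.1, 284.2 and 273.1 CPM in irradiated libraries, against 220.5, 231.4, 215.1 and 221.4 CPM in non-irradiated ones. All irradiated libraries were above all non-irradiated ones (log2 fold change 0.33, adjusted p 4.25e-07). Its ligand Egf averaged 1.31 ± 0.402 CPM in irradiated and 1.09 ± 0.395 CPM in non-irradiated cells (SD, n = 4 each; adjusted p 0.675). Both receptors of the anaphylatoxin C5a, C5ar1 and C5ar2, had no counts in any library.

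The genes around Cpm on the chromosome had small fold changes. Of 10 neighbours listed, 8 were tested, and 1 was higher, 1 lower and 6 not called (median log2 fold change 0.013). Mdm2, the ubiquitin ligase of p53, lies next to Cpm and is transcribed towards it. It had 218.9, 213.0, 210.5 and 216.1 CPM in irradiated libraries, against 237.1, 226.3, 243.5 and 250.3 CPM in non-irradiated ones, the reverse order to that of Cpm (log2 fold change -0.16, adjusted p 0.00363). Frs2, an adaptor of growth factor receptors, was called at a log2 fold change of 0.13 (adjusted p 0.0338) although its groups overlapped, and it lost the call without any one of L5, L6, L7, C5, C7 or C8 (up to 0.130). Cct2, a chaperonin subunit, had one of -0.016 (adjusted p 0.807). Whether counting used strand is not given in the sources used here, so reads from the facing ends of Cpm and Mdm2 could not be told apart where their transcripts overlap.

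Of 21 genes for the making and attachment of the GPI anchor, 20 were tested, and 1 was higher, 2 lower and 17 not called (median log2 fold change -0.040). Pigm, a mannosyltransferase, rose by 0.28 on the log2 scale (adjusted p 0.0013). Pigc, of the first step of anchor synthesis, fell to 12.2 ± 0.923 CPM in irradiated cells, against 17.1 ± 1.10 CPM in non-irradiated cells (SD, n = 4 each; log2 fold change -0.49, adjusted p 0.00062). Pigv, another mannosyltransferase, had a log2 fold change of -0.42 (adjusted p 0.0464) that did not pass without any one of L6, L7, L8, C5, C6, C7 or C8 (up to 0.136). The transamidase subunits Pigs and Pigt, which attach the anchor, had adjusted p of 0.353 and 0.987.

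In human cells, carboxypeptidase M is known as a marker of monocyte maturation into macrophages, so markers of other cell types were set beside the level of Cpm. Of 14 macrophage and osteoclast markers, 4 were tested, and 2 were higher, 0 lower and 2 not called (median log2 fold change 0.077). The shares over all tested genes were 8.22% higher and 6.75% lower. The summed level of the 14 markers was 48.3 to 51.3 CPM in irradiated and 31.1 to 36.0 CPM in non-irradiated libraries. Csf1r, the receptor for the macrophage growth factor, had 24.6, 26.2, 26.4 and 27.5 CPM in irradiated libraries, against 13.2, 15.8, 13.7 and 14.1 CPM in non-irradiated ones (log2 fold change 0.88, adjusted p 1.06e-07). Cd14, an endotoxin co-receptor, averaged 20.0 ± 0.858 CPM in irradiated and 14.2 ± 1.19 CPM in non-irradiated cells (SD, n = 4 each; log2 fold change 0.49, adjusted p 0.000293). The 2 not called had estimates of the opposite sign: Cd68, a lysosomal glycoprotein, averaged 3.52 ± 0.394 CPM in irradiated and 4.45 ± 0.459 CPM in non-irradiated cells without overlap (log2 fold change -0.34, adjusted p 0.193), and Mrc1, the mannose receptor, had a log2 fold change of -0.75 (adjusted p 0.670). The defining markers Adgre1, Itgam, Ptprc and Tyrobp, as well as Acp5, Dcstamp and Calcr, had no counts in any library. In bulk RNA, a change in the number of cells of a type and a change in RNA per cell cannot be told apart.

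The 8 endothelial markers, of which 1 was tested and 0 were called, summed to 0.272 to 0.693 CPM in irradiated and 0.251 to 1.01 CPM in non-irradiated libraries. The highest were Vwf, the clotting carrier protein, at 0.383 ± 0.215 CPM in irradiated and 0.277 ± 0.0904 CPM in non-irradiated cells (adjusted p 0.694), and Pecam1, an adhesion molecule, at 0.130 ± 0.0331 CPM in irradiated and 0.261 ± 0.192 CPM in non-irradiated cells (SD, n = 4 each); Cdh5, Kdr, Cldn5 and Emcn had no counts. The 8 epithelial markers, of which 1 was tested and 0 were called, summed to 0.346 to 0.523 CPM in irradiated and 0.398 to 0.990 CPM in non-irradiated libraries. The highest were the keratin Krt7 and the claudin Cldn4. Krt7 was at 0.417 ± 0.124 CPM in irradiated and 0.551 ± 0.171 CPM in non-irradiated cells (adjusted p 0.660). Cldn4 had 0 counts in irradiated libraries and 10 in non-irradiated library C5 alone. Epcam, Cdh1 and Krt5 had no counts. Krt13 and Krt19, the keratins picked above for profiles like that of Cpm, were not in this list. In irradiated cells Krt13 averaged 21.0 and Krt19 25.1 CPM, against 8.04 and 10.2 CPM in non-irradiated cells, without overlap. The low sum therefore covers the listed epithelial markers only. Of 8 adipocyte markers, 4 were tested and 1 was higher, Pparg, a nuclear receptor of fat cells, at 23.2 ± 1.20 CPM in irradiated and 19.6 ± 1.05 CPM in non-irradiated cells (SD, n = 4 each; adjusted p 0.0251). Pparg lost that call without any one of L7, L8, C5, C7 or C8 (up to 0.0822). The other 3 tested had negative log2 fold changes that did not pass: -0.067 for Cebpa, a transcription factor of fat cells (adjusted p 0.757), -0.59 for Fabp4 (adjusted p 0.693) and -0.53 for Lpl (adjusted p 0.677), and the median of the 4 was -0.30. The adipocyte markers summed to 36.3 to 42.0 CPM in irradiated and 33.4 to 40.8 CPM in non-irradiated libraries, and Adipoq, Cfd and Lep had no counts. The osteocyte markers summed to 2404.0 to 2472.4 CPM in irradiated and 2208.3 to 2301.7 CPM in non-irradiated libraries. Of 8 tested, 4 were higher and 3 lower, against 8.22% and 6.75% of all tested genes. Pdpn, Mmp14, Gja1 and Hyou1 were the higher ones, with log2 fold changes of 0.32, 0.28, 0.35 and 0.17. Capg, Ank and Dstn were the lower ones, with log2 fold changes of -0.16, -0.20 and -0.27, and Phex was not called. With no counts for Sost, Mepe and Fgf23 and Dmp1 below the filter, the sum hardly covers products of mature osteocytes. What part any of these markers has in the level of Cpm was not tested.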

How the data were processed

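RNA-seq gene counts of 4 irradiated and 4 non-irradiated MLO-Y4 libraries were used. The authors deposited whole-number estimated counts per gene, not normalized. Per the submitters' processing notes, Trimmomatic 0.39, FastQC 0.11.9, HISAT2 2.2.1, StringTie 2.1.7, DESeq2 1.32.0 and the build GRCm39 were named; their roles, the annotation release and strand use were not given. Counts varied more than single reads would: the median variance-to-mean ratio over genes with a mean of 5 to 100 counts was 4.32 in irradiated and 4.21 in non-irradiated libraries, so an alternative divided counts by 4.

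Genes were matched by Ensembl ID without version to symbols (52083 of 55359). Genes passing filterByExpr with a minimum count of 10 (15164) were fitted in edgeR 4.0.16 under R 4.3.3 with the quasi-likelihood test, TMM scaling and Benjamini-Hochberg adjustment at 0.05, and the scripts were tested on simulated data. CPM values use TMM-scaled totals (factors 0.989 to 0.997 in irradiated and 1.00 to 1.01 in non-irradiated libraries), and lengths are longest transcripts of GENCODE M21 on GRCm38. The SE of a log2 fold change comes from the fit. Limits of 3 counts and intervals cover counting error only. DESeq2 1.42.0 and limma-voom (limma 3.58.1), other scalings, filters, a replicate block and left-out libraries were alternatives. The members and gene lists were chosen with earlier results of these data known. The text names all 8 members and, from each pathway list, up to 4 called genes with the largest changes and the 2 with the highest mean CPM. From each marker list it names the 2 with the highest mean. It adds the 3 genes next in rank after Cpm and the 5 nearest profiles to Cpm, the latter without predicted-gene, clone or Riken names. Other genes were named after their values were seen. Every sample was placed in a group by its treatment label, and columns carry only the group, since sample titles run from 1 to 4 and columns from 5 to 8.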

Additional observations from a re-analysis of the deposited data

Results flagged for a closer look

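For the named genes, 96 groups of 4 libraries were looked at. In 11 of them a library had too large a gap to its nearest neighbour by Dixon's test at 95%. The gap was taken as a share of the group's whole range. Chance gives about 1 in 20 groups for normally spread values only. That rate does not hold for groups with counts in 1 library alone, such as Kng1 and Cldn4 below. Groups without any counts, such as those of Cpxm2, could not be flagged. Among the members, Bdkrb2 was low in irradiated library L5 at 0.439 CPM, where the other 3 irradiated libraries were at 0.892 to 0.970 CPM, and Cpz was high in non-irradiated library C8 at 0.2785 CPM, where the other 3 were at 0 to 0.0215 CPM. In irradiated libraries, Aebp1 was high in L8 (1425 CPM), Ece1 high in L7 (358.1 CPM), Kng1 high in L8 (0.141 CPM), Scpep1 low in L5 (218.1 CPM) and Vwf low in L5 (0.0627 CPM). In non-irradiated libraries, Aebp1 was high in C8 (1341 CPM), Cldn4 high in C5 (0.215 CPM), Pam low in C8 (164.2 CPM) and Pigv low in C7 (7.33 CPM).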

How the results depend on the processing

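The log2 fold change of Cpm was positive under all 18 alternatives, at 1.89 to 2.29. Its rank by rise among all tested genes was 4 with counts divided by 4, 1 with a filter of 1 CPM in 4 libraries, 1987 with a filter of 1 count in total, 53 with limma-voom, 25 without both libraries numbered 6, and 10 to 47 with 1 library left out. Among genes whose mean reached 1 CPM its rank was 2 with counts divided by 4, 4 with limma-voom, 4 without both libraries numbered 6, and 1 to 4 with 1 library left out. Cpd and Cpe stayed on the same side of the threshold in 18 of 18 alternatives. Bdkrb1 passed with DESeq2 (log2 fold change 0.40, adjusted p 0.0291), counts divided by 4 (0.40, adjusted p 0.0440), the 1 CPM filter (0.41, adjusted p 0.0453) and without both libraries numbered 6 (0.49, adjusted p 0.0458); over its 18 alternatives the adjusted p was 0.0291 to 0.175. Cpxm1 passed with DESeq2 size factors (1.65, adjusted p 0.0496) and limma-voom (1.78, adjusted p 0.0411); its range over 15 alternatives was 0.0411 to 0.235. With 1 library left out the log2 fold change was 0.33 to 0.47 for Bdkrb1, 0.89 to 1.76 for Bdkrb2 (adjusted p 0.0344 to 0.331) and 1.36 to 2.09 for Cpxm1. Over the pathway lists, 14 genes were higher (11 to 14 with 1 library left out) and 7 lower (4 to 7, with 4 without L7 and 4 without C5). Over all genes, 1247 were higher and 1023 lower, 976 to 1501 and 696 to 1172 with 1 library left out. With library totals alone these were 1050 higher and 1345 lower, 43.8% higher against 54.9%. The cause of each such change was not tested.

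The labels do not say whether equal column numbers mark pairs of samples. Same-numbered libraries had correlations of deviations of -0.0459 to 0.00143, and differently numbered ones of -0.0217 to 0.0333. Values so small over all tested genes cannot decide whether the numbers pair the samples. With a replicate block on the number, Cpm had a log2 fold change of 2.13 and rank 27, 1006 genes were higher and 751 lower, and the adjusted p was 0.0771 for Bdkrb1, 0.123 for Bdkrb2, 0.0997 for Cpxm1, 0.331 for Cpd and 0.173 for Cpe. Depth limits Cpz, Cpxm1, Cpxm2 and Bdkrb2, each with under 50 counts in every library.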
